A study of Mus musculus with 6 samples.

Results

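The transcripts of 38 genes that build the contact between mammary epithelial cells and their matrix were examined in the mammary glands of Rac1-/- and WT mice at involution day 2. The genes were listed by name as laminin chains, as collagens, nidogens and proteoglycans of the basement membrane, as integrins with dystroglycan, and as adhesion plaque proteins. Each was read from the probe sets that name only that gene, and 1 value per gene was taken from the probe set with the highest mean over the 6 arrays. This gave 37 measured genes of 18194 genes on the array. No probe set was annotated to Ptk2, which encodes focal adhesion kinase, and Ptk2 was not analysed here.

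Rac1-/- glands came from 3 mice (Nas496, Nas497 and Nas518), which carried floxed Rac1 alleles, a conditional YFP reporter and the WAPiCre transgene. WT glands came from 3 mice (Nas478, Nas483 and Nas484), Cre-negative animals that carried the same floxed alleles and reporter. RNA of each gland was hybridized to 1 Affymetrix mouse array, with age-matched groups and no pooling. The whey acidic protein promoter drives Cre in luminal epithelial cells from mid-pregnancy, so stromal and myoepithelial cells of Rac1-/- glands keep an intact Rac1 gene, and no array held a gland with Cre and unfloxed Rac1. In whole tissue, fewer cells of a type and less RNA per cell cannot be told apart.

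The basement membrane is a thin sheet of matrix under epithelia. Its laminin network and its type IV collagen network are linked by nidogens and by the proteoglycans perlecan and agrin, and epithelial cells hold on to laminin through integrins and dystroglycan. On the cytoplasmic side, talin, kindlin, vinculin, paxillin and the complex of integrin-linked kinase, PINCH and parvin connect integrins to actin. In the mammary gland these contacts support survival and milk protein synthesis, and the basement membrane is remodelled when milk removal stops. Rac1 is a small GTPase that acts downstream of integrins on the actin cytoskeleton, and the study stained focal adhesion proteins and laminin in cultured cells without Rac1. The question put to the arrays here was whether the transcripts of these components differed between the glands.

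The arrays differed in signal range and in control probe sets. Before normalization between arrays, the median intensity was between 56.0 and 88.0 in Rac1-/- glands and between 40.6 and 71.5 in WT glands, and the interquartile range of log2 intensity was between 1.23 and 1.98 in Rac1-/- glands and between 1.42 and 2.85 in WT glands. The 3' minus 5' signal of the beta-actin control probe sets was between -1.24 and -0.30 (log2) in Rac1-/- glands and between -0.17 and 0.05 in WT glands, with no overlap. Nas497 (Rac1-/-) and Nas484 (WT) lay at 1 end of the main axis of variation between arrays (44.3% of all variance), at 119.19 and 64.53. Nas518 (Rac1-/-) was next at 4.68, and the other arrays lay between -77.83 and -36.23. The part of these differences in the results was not tested. The brightest Rac1 probe set read 9.51, 9.01 and 9.84 (log2 intensity) in Rac1-/- glands and 9.31, 9.5 and 8.97 in WT glands. The next Rac1 probe set read 8.77, 8.34 and 8.14 in Rac1-/- glands and 8.74, 9.0 and 9.89 in WT glands. The last, dim Rac1 probe set read 3.41, 3.31 and 0 (the floor) in Rac1-/- glands and 4.95, 3.68 and 2.24 in WT glands. In this order the differences were 0.19 (SE 0.47), -0.80 (SE 0.50) and -1.38 (SE 1.05). The groups overlapped on all of these probe sets. Where they lie relative to the floxed part of the gene is not given in the sources used here. Markers of luminal cells were present in every gland: Epcam averaged 10.53 ± 0.39 in Rac1-/- glands and 10.66 ± 0.45 in WT glands (SD, n = 3 each).

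No adhesion gene passed the test. In the limma fit, the adjusted p was under 0.05 for 0 of 37 genes, and the same held for 0 of all 18194 genes (0%). At an unadjusted p under 0.05, 0 of 37 genes were higher and 0 were lower in Rac1-/- glands, against 2.23% of all genes higher and 1.82% lower. Every Rac1-/- value lay above every WT value for 0 of 37 genes, against 5.41% of all genes. Every Rac1-/- value lay below every WT value for 1 gene, Itga6, which is 2.70% of the 37, against 4.20% of all genes. These shares are near or under the background of the whole array.

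The estimates spread around 0. Of the 37 genes, 18 averaged higher and 19 lower in Rac1-/- glands, with a median log2 fold change (Rac1-/- over WT) of -0.04 and an interquartile range of -0.23 to 0.25. The median over all genes was 0.06. By role, the median was 0.14 for the 9 laminin chains (6 higher, 3 lower), 0.08 for the 9 collagens, nidogens and proteoglycans (6 higher, 3 lower), -0.28 for the 8 integrins and dystroglycan (3 higher, 5 lower) and -0.16 for the 11 adhesion plaque genes (3 higher, 8 lower). For 32 of 37 genes (86.5%) the difference between the groups was smaller than the pooled SD within groups, against 70.7% of all genes. The 95% interval lay wholly between -1 and 1 for 0 of the 37 genes. It excluded a rise of 1 (log2) for 10 genes and a fall of 1 for 11, so for each gene a 2-fold difference in at least 1 direction was not excluded at this number of mice.

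**Figure D1:**
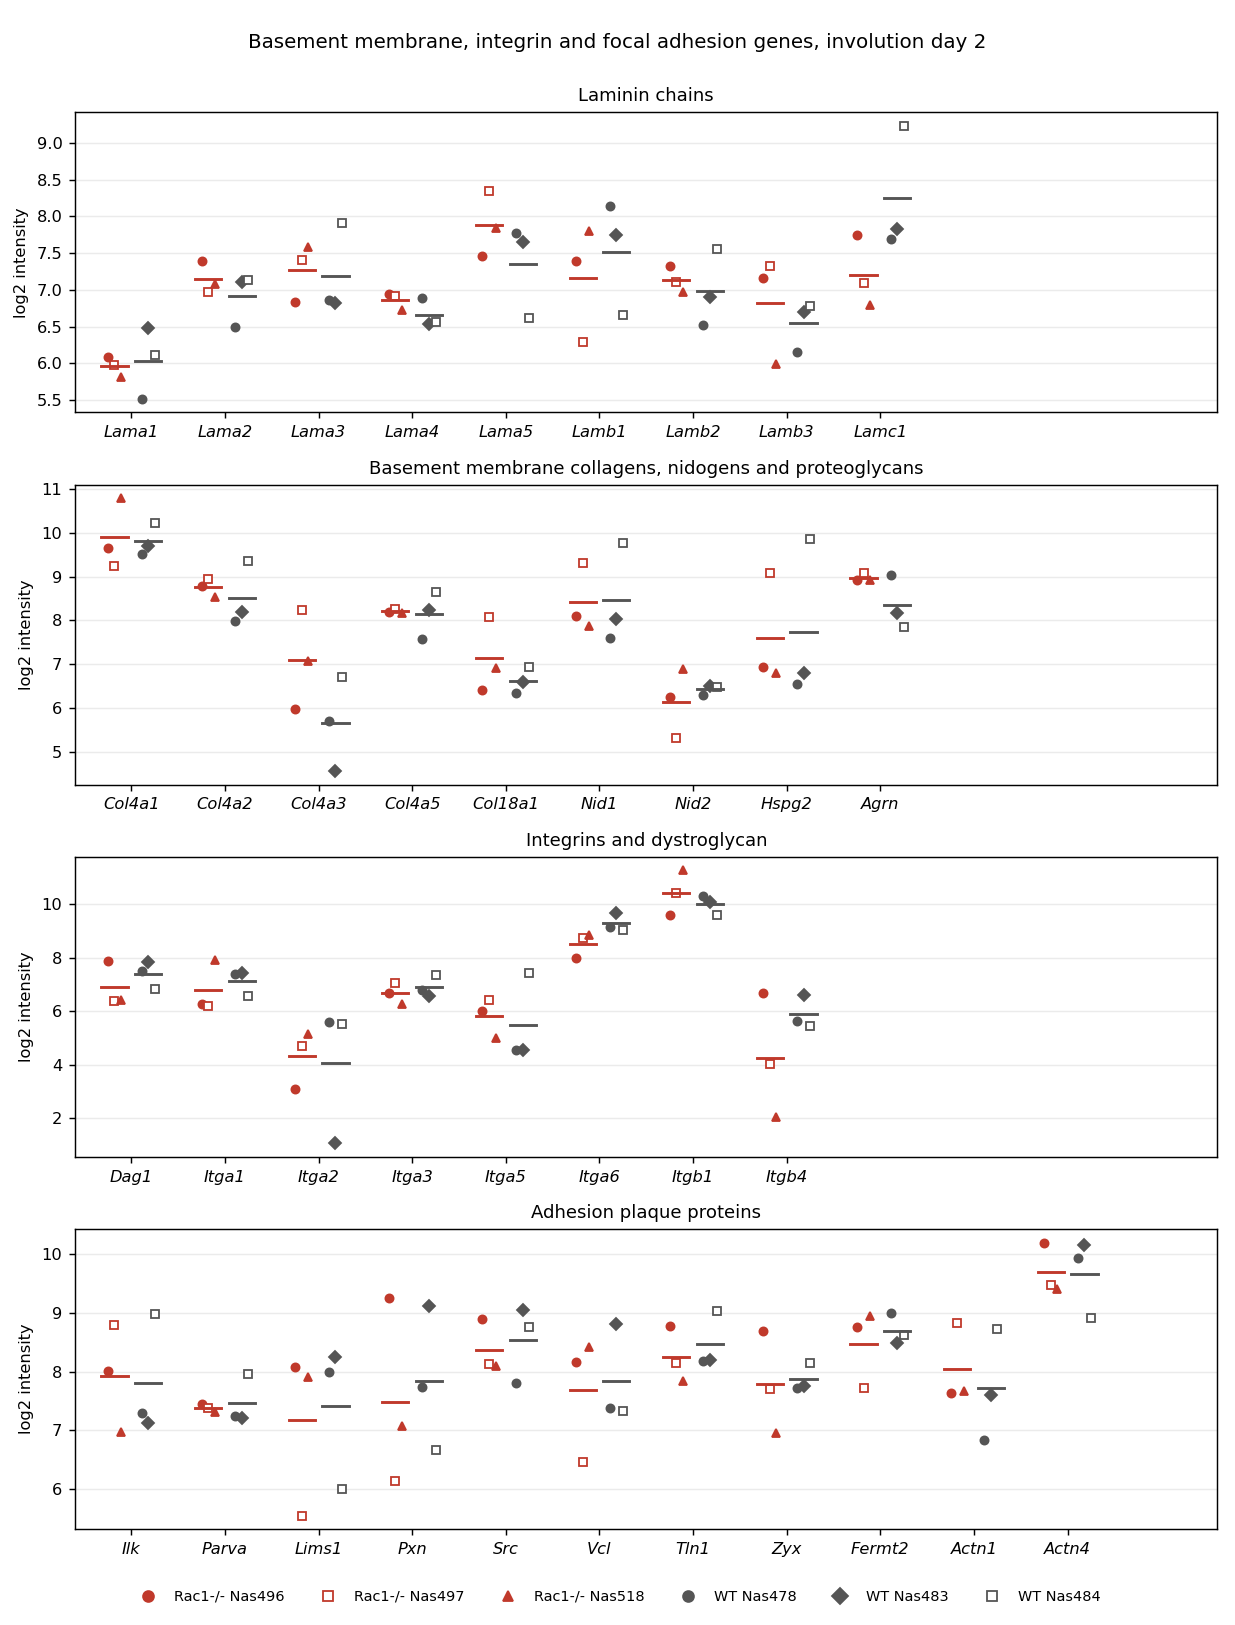
Log2 intensity of the 37 genes in each mouse, by role. Rac1-/- mice are red and stand left of WT mice in grey, a bar marks each group's mean, and open squares are Nas497 and Nas484. Itga6 is the gene whose groups do not overlap.

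Laminins are trimers of an alpha, a beta and a gamma chain. Lama1, Lamb1 and Lamc1 encode the chains of the trimer that the study stained. Lama1 read 6.09, 5.98 and 5.81 (log2 intensity) in Rac1-/- glands and 5.52, 6.48 and 6.12 in WT glands. The Rac1-/- values lay inside the range of the WT values, and the difference was -0.08 (SE 0.45, limma adjusted p = 0.992). Lamb1 read 7.39, 6.29 and 7.79 in Rac1-/- glands and 8.15, 7.74 and 6.65 in WT glands. The groups overlapped, each had 1 low gland, Nas497 and Nas484, and the difference was -0.35 (SE 0.59, limma adjusted p = 0.964). Lamc1, the gamma chain shared by most laminins, read 7.75, 7.09 and 6.79 in Rac1-/- glands and 7.69, 7.83 and 9.23 in WT glands. Only Nas496 among Rac1-/- glands reached the WT range, while Nas484 stood far above the others. The difference of -1.04 (SE 0.56, 95% interval -2.33 to 0.25) was the lowest of the 9 laminin chains, with a limma adjusted p of 0.946. Without Nas484 the Lamc1 difference was -0.57.

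Of the other chains, Lama5, which is found in most adult epithelial basement membranes, averaged highest relative to WT. It read 7.45, 8.35 and 7.84 in Rac1-/- glands and 7.78, 7.65 and 6.61 in WT glands, a log2 fold change of 0.53 (SE 0.51). The overlap came from Nas496, which lay below 2 of the WT glands. Lama3 and Lamb3, chains of the laminin that anchors hemidesmosomes, had log2 fold changes of 0.08 (SE 0.50) and 0.28 (SE 0.51). Lama2 and Lama4, chains known from muscle and vessel basement membranes, differed by 0.23 (SE 0.44) and 0.20 (SE 0.42), and Lamb2 by 0.14 (SE 0.46). None of these differences was larger than its standard error except that of Lama5.

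Col4a1 and Col4a2 encode the chains of the common type IV collagen trimer. They lie head to head on mouse chromosome 8. The RefSeq start sites (GRCm38.p6) used here, 1 per gene, are 21 bases apart on opposite strands. That of Col4a2 is at 11312805 (plus strand) and that of Col4a1 at 11312826 (minus strand), so the transcripts overlap at their first bases. The promoter windows of both genes, from 250 bases before to 50 bases after each start, share 78 bases at chr8:11312777-11312854. These bases are shown because both genes are read from them. They are printed on the plus strand, the strand of Col4a2, with a GGGCGG motif in capitals:
Col4a1 and Col4a2 shared bases: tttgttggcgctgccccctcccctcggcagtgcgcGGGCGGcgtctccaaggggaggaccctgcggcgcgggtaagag
Among the adhesion genes, 27 had a window in this RefSeq table, 35 windows in all. GGGCGG, searched on both strands, was in 26 of the 35 windows (74.3%) and in 35.7% of the 32851 windows of all genes in the table. CCAAT was in 13 of 35 (37.1%) against 37.4% of all windows, and TATAAA in 1 of 35 (2.86%) against 13.6%. None of the motifs contains another, and a match is a run of letters, not a bound site.

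The levels of both collagen genes overlapped between the groups. Col4a1 read 9.65, 9.24 and 10.79 in Rac1-/- glands and 9.5, 9.70 and 10.23 in WT glands, a log2 fold change of 0.08 (SE 0.54). Col4a2 read 8.79, 8.94 and 8.54 in Rac1-/- glands and 7.99, 8.20 and 9.35 in WT glands, a log2 fold change of 0.25 (SE 0.51). Nas484 was the highest gland for Col4a2, and the other 2 WT glands were the lowest. On these probe sets Nas518 was the highest gland for Col4a1 but the lowest Rac1-/- gland for Col4a2, so the order of mice differed. The second probe set of Col4a1 read 9.79, 9.46 and 9.55 in Rac1-/- glands and 8.13, 9.32 and 10.16 in WT glands. There Nas484 was highest and the other 2 WT glands were lowest, as for Col4a2.

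Col4a3, a chain best known from the kidney glomerulus, had the highest log2 fold change of the 37 genes. It read 5.98, 8.23 and 7.06 in Rac1-/- glands and 5.70, 4.56 and 6.71 in WT glands, a difference of 1.44 (SE 0.74, 95% interval -0.25 to 3.12). Nas496 lay below the WT gland Nas484, so the groups overlapped, and the limma adjusted p was 0.946. Its second probe set had a log2 fold change of 0.31 (SE 0.50). Col4a5, a further chain of this family, differed by 0.06 (SE 0.46), with Rac1-/- glands between 8.17 and 8.25 and WT glands between 7.57 and 8.64.

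Among the linkers, Agrn, which encodes agrin, read 8.92, 9.09 and 8.91 in Rac1-/- glands and 9.02, 8.16 and 7.85 in WT glands. The Rac1-/- glands lay close together and only the WT gland Nas478 reached them, and the difference was 0.63 (SE 0.47). Col18a1, the source of endostatin, differed by 0.52 (SE 0.54). Hspg2, which encodes perlecan, read 6.94, 9.08 and 6.80 in Rac1-/- glands and 6.55, 6.80 and 9.86 in WT glands. Nas497 and Nas484 stood more than 2 log2 units above the other 4 glands, and the group difference was -0.13 (SE 0.98). On the second probe set of Hspg2 these glands read 8.20 and 8.14, and the other 4 read 6.05 to 7.46. The group difference there was -0.37 (SE 0.64). Nid1, the main nidogen, was likewise highest in Nas497 (9.31) among Rac1-/- glands and in Nas484 (9.76) among WT glands, with a group difference of -0.04 (SE 0.68). Nid2 differed by -0.28 (SE 0.52) and was lowest in Nas497.

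Itga6, the integrin alpha subunit that pairs with Itgb1 or Itgb4 to bind laminin, was the gene that separated the groups. It read 7.98, 8.74 and 8.87 in Rac1-/- glands and 9.16, 9.69 and 9.06 in WT glands. Every Rac1-/- gland lay below every WT gland, by 0.19 at the closest pair. The mean difference was -0.77 (1.71-fold lower, SE 0.47, 95% interval -1.84 to 0.30), and the limma adjusted p was 0.946. Its second probe set read 8.01, 8.29 and 8.21 in Rac1-/- glands and 8.90, 9.26 and 9.24 in WT glands. The groups did not overlap there either, with a difference of -0.97 (SE 0.43, limma adjusted p = 0.949 over all probe sets). For all probe sets of the array, the share with Rac1-/- glands wholly below WT glands was 4.86%.

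For both partners of Itga6 the groups overlapped. Itgb1, the beta subunit of most matrix-binding integrins, read 9.61, 10.41 and 11.27 in Rac1-/- glands and 10.31, 10.10 and 9.61 in WT glands. Nas518 was the highest gland and Nas496 and Nas484 the lowest, and the difference was 0.43 (SE 0.54, limma adjusted p = 0.958). Itgb4, the beta subunit of hemidesmosomes, read 6.67, 4.01 and 2.05 in Rac1-/- glands and 5.63, 6.62 and 5.45 in WT glands. It had the lowest log2 fold change of the 37 genes at -1.66, with an SE of 1.04 (limma adjusted p = 0.946). The 3 Rac1-/- glands spanned more than 4 log2 units, and Nas496 was the highest gland of all 6. Itgb4 was dim, with its mean at percentile 16.1 of all genes. With a floor of 16 the Itgb4 difference was -1.0049, and Lamc1 was then the lowest of the 37 genes at -1.0406. Without Nas518 the Itgb4 difference was -0.58, and without Nas496 it was -2.82.

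The other receptors overlapped between the groups. Dag1, which encodes dystroglycan, averaged 6.89 ± 0.85 in Rac1-/- glands and 7.39 ± 0.52 in WT glands (SD, n = 3 each), a difference of -0.50 (SE 0.57). Of its 4 probe sets 3 averaged lower in Rac1-/- glands, while the second differed by 0.46 (SE 0.50). Itga3, the other main laminin-binding alpha subunit of the epithelium, differed by -0.23 (SE 0.46). Its other probe sets differed by 0.55 (SE 0.50) and 0.42 (SE 0.98). The collagen receptor subunits Itga1 and Itga2 differed by -0.33 (SE 0.59) and 0.25 (SE 1.19). Itga2 varied widely, with 3.08 to 5.14 in Rac1-/- glands and 1.06 to 5.58 in WT glands. Itga5, the alpha subunit of the fibronectin receptor, differed by 0.31 (SE 0.83) and was highest in Nas484.

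For the 8 receptor genes together, the median of each gland's deviations from the gene means was -0.35, 0.01 and -0.29 in the Rac1-/- glands Nas496, Nas497 and Nas518, and 0.30, 0.17 and 0.26 in the WT glands Nas478, Nas483 and Nas484. These medians did not overlap, while those of the other 3 roles did. Of the 8 genes themselves, only Itga6 had groups that did not overlap. For the 19 further integrins and matrix receptors described below, the medians overlapped, at 0.11 to 0.51 in Rac1-/- glands and -0.33 to 0.36 in WT glands. Over all genes the same medians were 0.06, 0.20 and 0.03 in Rac1-/- glands and -0.01, -0.02 and 0.11 in WT glands. They are given as a description, with no test, and 3 against 3 glands allow no two-sided exact p under 0.1.

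**Figure D2:**
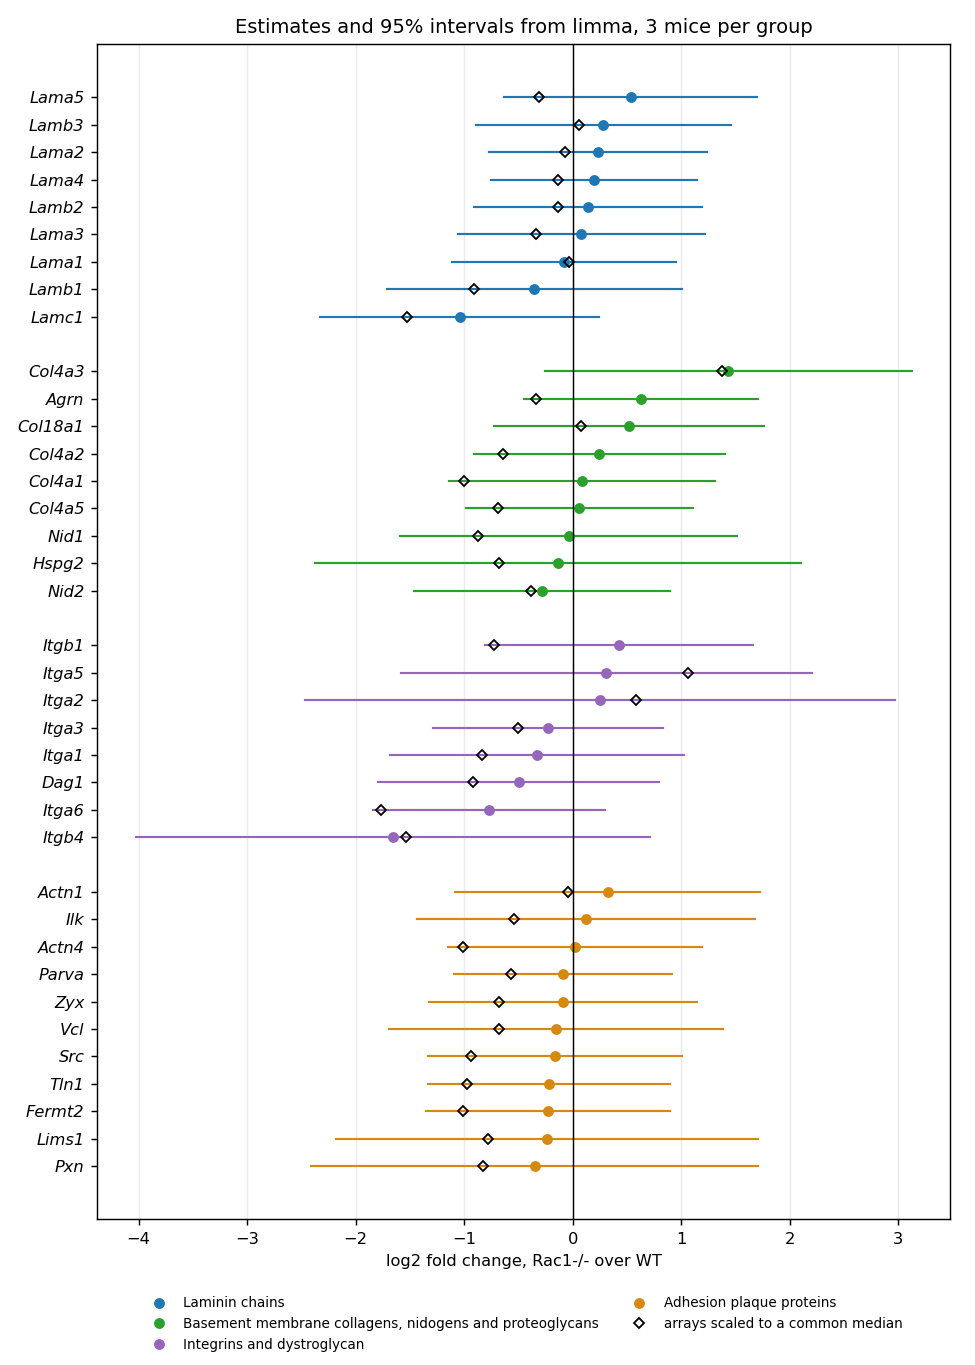
Log2 fold change of each gene, Rac1-/- over WT, with its 95% interval from limma (filled points and lines, coloured by role) and the estimate with arrays scaled to a common median (open diamonds). Every interval holds 0, and most diamonds lie to the left of the points.

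Adhesion plaque genes showed no separation. Vcl, which encodes vinculin, read 8.17, 6.47 and 8.42 in Rac1-/- glands and 7.38, 8.81 and 7.33 in WT glands. Nas497 was the lowest of the 6 glands and the groups overlapped, with a difference of -0.16 (SE 0.67, limma adjusted p = 0.992). Pxn, which encodes paxillin, read 9.26, 6.13 and 7.07 in Rac1-/- glands and 7.73, 9.12 and 6.66 in WT glands. The glands of each group spread over more than 2 log2 units, and the difference was -0.35 (SE 0.90, limma adjusted p = 0.978). Leaving out 1 gland turned the Pxn difference to as low as -1.21 or as high as 0.35. For the kinase Src the difference was -0.16 (SE 0.51).

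Tln1 and Fermt2, which encode the integrin activators talin and kindlin, differed by -0.22 (SE 0.49) and -0.23 (SE 0.49). The other probe sets of Tln1 differed by 0.79 (SE 0.57) and 0.22 (SE 0.47). Of the complex that holds integrin-linked kinase, Ilk itself differed by 0.12 (SE 0.68), the PINCH gene Lims1 by -0.24 (SE 0.85) and Parva by -0.09 (SE 0.44). Ilk was highest in Nas497 (8.80) among Rac1-/- glands and in Nas484 (8.99) among WT glands, whereas Lims1 was lowest in these glands, at 5.55 in Nas497 and 6.01 in Nas484. Parva was the steadiest plaque gene in Rac1-/- glands, between 7.31 and 7.45, against 7.20 to 7.96 in WT glands. Zyx, a zyxin gene of mature adhesions, differed by -0.09 (SE 0.54), and the actin cross-linkers Actn1 and Actn4 by 0.32 (SE 0.62) and 0.03 (SE 0.51).

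Genes with several probe sets often gave more than 1 answer. Of 84 probe sets that name an adhesion gene, 38 averaged higher and 46 lower in Rac1-/- glands. All probe sets of a gene had 1 sign for 15 of the 27 genes with more than 1. Rac1-/- glands lay wholly above WT glands on 1 probe set and wholly below on 3, against 4.60% and 4.86% of all probe sets. The 1 above was the second probe set of Lama5, which read 7.24, 8.96 and 7.87 in Rac1-/- glands and 6.81, 7.19 and 5.09 in WT glands, a difference of 1.66 (SE 0.71). The 3 below were both probe sets of Itga6 and the third of Pxn, which read 5.79, 5.78 and 4.4 in Rac1-/- glands and 6.19, 6.02 and 6.90 in WT glands, a difference of -1.04 (SE 0.57). The second probe set of Lamc1 read 7.0, 5.94 and 7.5 in Rac1-/- glands and 7.28, 7.24 and 7.59 in WT glands. It kept the sign of the first, with a smaller difference of -0.56 (SE 0.54). Of the 6 probe sets of Itgb1, 2 averaged higher and 4 lower in Rac1-/- glands, between 0.43 and -1.38. The 2 higher were the brightest, at 0.43 and 0.12. The value of -1.38 came from a dim probe set that read 2.00 in Nas496 and 4.87 to 5.79 in the other glands.

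**Figure D3:**
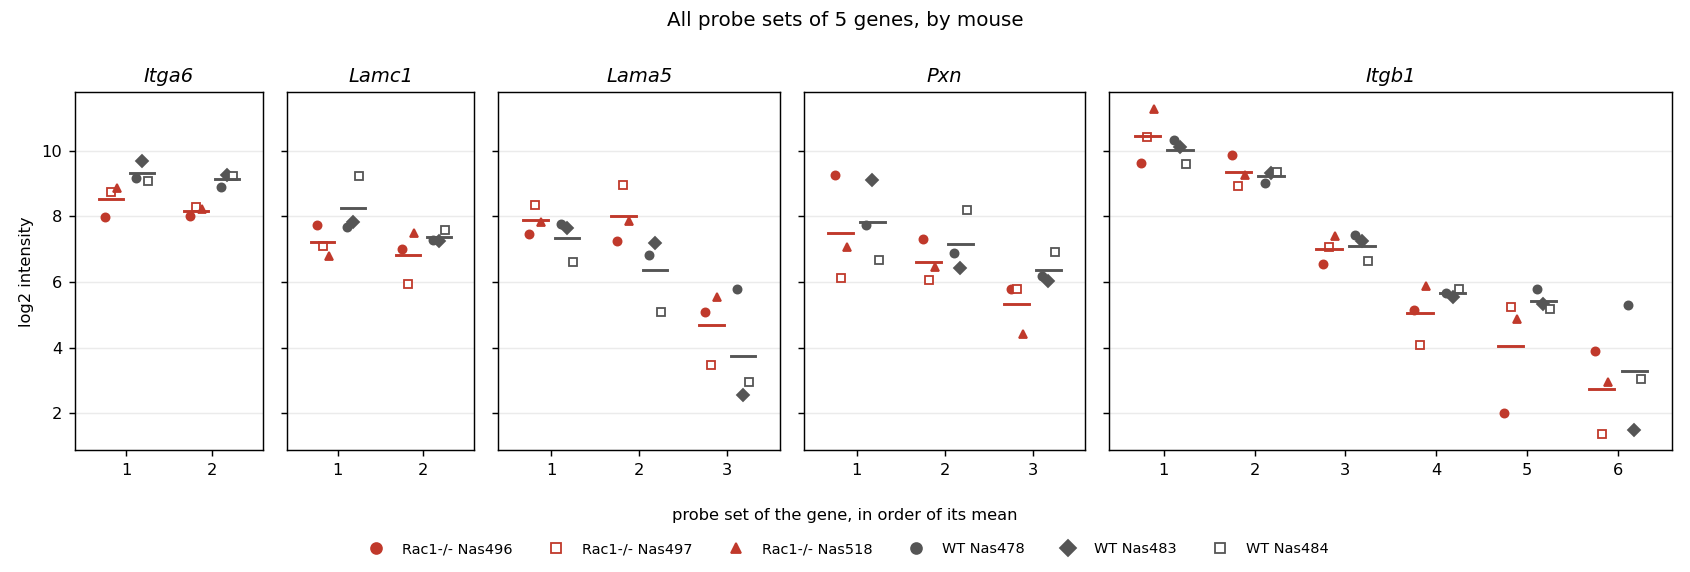
Log2 intensity on every probe set of Itga6, Lamc1, Lama5, Pxn and Itgb1, in order of mean intensity, with Rac1-/- mice in red left of WT mice in grey and bars at group means. Both Itga6 probe sets separate the groups. Of the 6 Itgb1 probe sets, the 2 brightest average higher in Rac1-/- glands and the dimmer ones lower.

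For part of the genes, 2 glands of different groups stood together at 1 end of the order, at shares near those of all genes. Nas497 (Rac1-/-) and Nas484 (WT) were the 2 highest of the 6 glands for 9 of 37 genes (24.3%), against 19.8% of all genes. They were the 2 lowest for 4 genes (10.8%), Lamb1, Lims1, Pxn and Vcl, against 14.8%. For 4 of the 27 genes with several probe sets (14.8%), Lamb1, Col4a5, Nid1 and Actn1, these glands were the 2 highest on 1 probe set and the 2 lowest on another, against 10.1% of all genes with several. Nid1 shows the size of this. Its brightest probe set read 8.11, 9.31 and 7.87 in Rac1-/- glands and 7.61, 8.03 and 9.76 in WT glands, whereas its second read 5.85 in Nas497 and 6.52 in Nas484 and at least 8.72 in the other 4 glands.

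The sign of the estimates also moved with the scaling of the arrays. With each array scaled to a common median instead of quantile normalized, 5 genes averaged higher and 32 lower in Rac1-/- glands, with a median of -0.68. All genes shifted as well, to a median of -0.13, and genes brighter than the median gene, which included 33 of the 37, to -0.57. Relative to these bright genes the adhesion genes were 0.11 lower. Of the bright genes 80.9% were below 0 under this scaling, against 86.5% of the adhesion genes. Itga6 then differed by -1.76 and Lamc1 by -1.53, the 2 genes at an unadjusted p under 0.05 there, and the lowest limma adjusted p of the 37 genes was 0.747. Rac1-/- glands lay wholly below WT glands for 3 of the 37 genes, Itga6, Lamc1 and Itga3, against 6.57% of all genes under this scaling. Among all genes at an unadjusted p under 0.05, 55% were higher in Rac1-/- glands after quantile normalization, 41.9% under the common median and 78.2% without normalization. Itga6 remained lower in Rac1-/- glands under all 15 alternatives, between -1.76 and -0.49, with a lowest limma adjusted p of 0.651, though leaving out mice can hardly turn a gene whose groups do not overlap. Lamc1 was lower in all of them, between -1.53 and -0.57, and Col4a3 higher, between 0.84 and 2.05.

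Further genes of the same structures, from lists made by function, gave the setting for these values. Of 19 measured further basement membrane genes, 0 passed the limma test, 13 averaged higher and 6 lower in Rac1-/- glands, with a median of 0.33. Rac1-/- glands lay wholly above WT glands for 3 of the 19, against 5.41% of all genes. The lowest p among them belonged to Frem1, a protein of the membrane under embryonic epidermis, which read 5.66, 6.39 and 6.63 in Rac1-/- glands and 5.19, 4.69 and 5.57 in WT glands, a difference of 1.08 (SE 0.49). Fbln1, an elastic fibre and basement membrane protein, followed with 7.70, 7.71 and 7.75 in Rac1-/- glands and 6.81, 6.70 and 7.47 in WT glands, a difference of 0.73 (SE 0.44). Both had a limma adjusted p of 0.946, and the third gene with Rac1-/- glands wholly above was the laminin chain Lamc3 at 0.62 (SE 0.44).

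Of 19 further integrins and matrix receptors, 0 passed, 13 averaged higher and 6 lower, with a median of 0.44 against -0.28 for the 8 receptors above. The further lists are given after quantile normalization only. The median of the 8 receptors moved to -0.78 with arrays scaled to a common median. Itga7, a laminin-binding subunit best known from muscle, read 6.28, 7.29 and 5.99 in Rac1-/- glands and 5.26, 4.16 and 6.23 in WT glands, a difference of 1.30 (SE 0.64). Bcam, a receptor for the Lama5 chain, read 6.35, 5.66 and 5.29 in Rac1-/- glands and 6.24, 6.97 and 7.03 in WT glands, a difference of -0.98 (SE 0.49). In both genes the groups overlapped slightly. Of 28 further adhesion plaque genes, 0 passed, 15 averaged higher and 13 lower, with a median of 0.06. Arhgef6, an exchange factor for Rac1 and Cdc42, read 6.83, 6.28 and 6.10 in Rac1-/- glands and 7.28, 8.52 and 7.11 in WT glands. The groups did not overlap and the difference was -1.24 (SE 0.53), with a limma adjusted p of 0.946. Pdlim7, an actin-associated PDZ and LIM protein, lay wholly above, with 7.03, 7.19 and 5.89 in Rac1-/- glands, 5.68, 5.66 and 5.83 in WT glands and a difference of 0.98 (SE 0.49).

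Markers of the cells that make and bind basement membrane were read beside these genes. The summed intensity of 10 luminal markers was between 8328 and 9176 in Rac1-/- glands and between 9589 and 11380 in WT glands, with no overlap. A sum gives most weight to the brightest genes, and Elf5 was the brightest of these markers in each WT gland. By gene, 5 luminal markers averaged higher and 5 lower in Rac1-/- glands. The medians of each gland's deviations from the gene means overlapped, at -0.09 to 0.09 in Rac1-/- glands and -0.56 to -0.03 in WT glands. Elf5, the alveolar transcription factor in that list, read 10.70, 10.17 and 10.86 in Rac1-/- glands and 11.96, 11.57 and 12.54 in WT glands (difference -1.45, SE 0.47, limma adjusted p = 0.946), whereas Krt18 and Cldn3 lay wholly above WT. The summed intensity of 10 myoepithelial markers was between 2981 and 4815 in Rac1-/- glands and between 2132 and 2814 in WT glands, again without overlap. By gene, 6 myoepithelial markers averaged higher and 4 lower. Only Acta2, a bright one (difference 1.24, SE 0.56), lay wholly above WT glands, against 5.41% of all genes. The gland medians of this list overlapped, at 0.04 to 0.48 in Rac1-/- glands and -0.19 to 0.10 in WT glands. Fibroblast markers summed to between 7929 and 21150 in Rac1-/- glands and between 12730 and 18040 in WT glands, and endothelial markers to between 966 and 1511 in Rac1-/- glands and between 918 and 2330 in WT glands. Macrophage markers averaged higher for 9 of 10 genes, with sums of 3403 to 8419 in Rac1-/- glands and 2207 to 4837 in WT glands. No marker was at the floor. The part of these cell types in the levels of Itga6 or of the other genes was not tested.

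**Figure D4:**
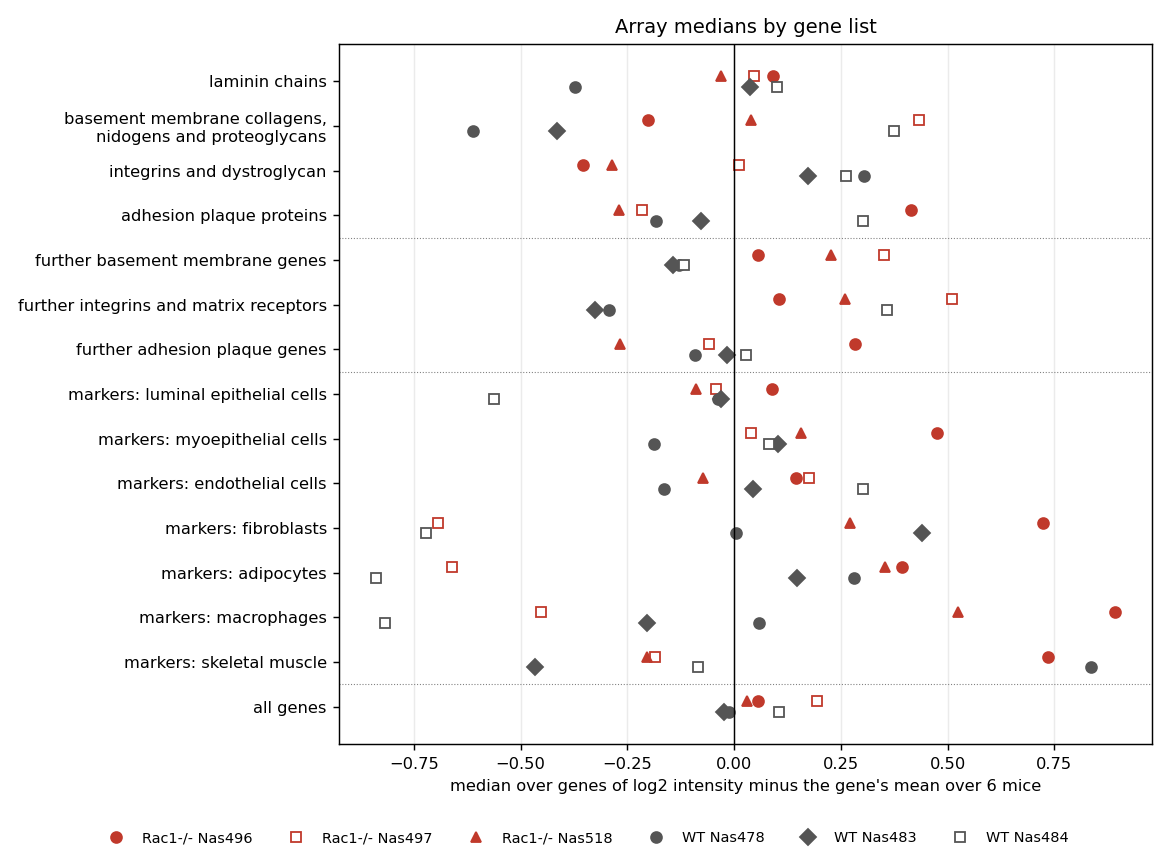
Median over each list of the gene-centred log2 intensity, 1 point per mouse (Rac1-/- red and above, WT grey and below in each row; open squares are Nas497 and Nas484), for the 4 roles, 3 further lists, 7 marker lists and all genes. The row of integrins and dystroglycan separates the groups with Rac1-/- lower, but the row of further integrins and matrix receptors does not. The further basement membrane row separates them with Rac1-/- higher.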

How the data were processed

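Whole mammary glands of 3 Rac1-/- and 3 WT mice were arrayed, 1 array per mouse. Amplification was with the Affymetrix Sensation kit for low-quality RNA, and quality control was run in Expression Console. Each probe set has 1 deposited intensity on a linear scale, and how the authors summarized probes is not given in the sources used here. The mean of each array without 2% at each end was 100, so the arrays had been scaled. Intensities of 45101 probe sets were brought to equal quantiles (limma 3.58.1, R 4.3.3), set to at least 1 and log2 transformed. Of these, 34958 name 1 gene symbol, 932 several and 9211 none. The brightest probe set stood for each of 18194 genes. The Rac1-/- and WT groups were tested by lmFit and eBayes, and p-values were adjusted (Benjamini-Hochberg) over all genes. The number of arrays limits the precision.

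All members are named. Values by mouse are given for members whose groups did not overlap, for proteins the study stained, for the 2 genes with the smallest p of each further list, and for others that show a pattern, chosen after their values were seen. Members and lists were chosen with earlier results of these data known. On data simulated for this comparison over 18194 genes, of 50 genes each, 0 were called at a true log2 change of 1, 0 at 2, 21 at 3 and 31 at 4. Alternatives were 2 other scalings, 2 other rules for probe sets, a brightness filter, a floor of 16, a trended prior, array weights and left-out arrays.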

Additional observations from a re-analysis of the deposited data

How the results depend on the processing

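No gene of the array and no adhesion gene passed the adjusted threshold in limma under any of the 15 alternatives. The number of arrays limits the precision. No paired analysis was possible because the labels give no replicate numbers shared between the groups. Lamb3, Lamc1, Col4a3, Col18a1, Dag1, Itga1, Itga6 and Itgb4 kept their direction under all alternatives in which they were measured, and the other genes did not. The cause was not tested. For Dag1, which kept its direction, the second probe set averaged higher in Rac1-/- glands (0.46, SE 0.50).

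With arrays scaled to a common median, the median log2 fold change was -0.68 over the adhesion genes, -0.14 over laminin chains, -0.64 over collagens, nidogens and proteoglycans, -0.78 over integrins and dystroglycan and -0.78 over adhesion plaque genes. Of the array, 538 genes were lower at an unadjusted p under 0.05 (332 after quantile normalization), with 2 adhesion genes among them, and 3 of 37 adhesion genes had all Rac1-/- glands below WT glands, against 6.57% of all genes. The sign turned for Lama2 (-0.073), Lama3 (-0.34), Lama4 (-0.13), Lama5 (-0.31), Lamb2 (-0.14), Col4a1 (-0.997), Col4a2 (-0.64), Col4a5 (-0.69), Agrn (-0.34), Itgb1 (-0.73), Ilk (-0.54), Actn1 (-0.039) and Actn4 (-1.01). Without normalization between arrays, 646 genes were higher and 180 lower, with 1 adhesion gene lower, and the laminin median was 0.33. The sign turned for Lama1 (0.44), Col4a1 (-0.53), Col4a2 (-0.17), Col4a5 (-0.22), Nid2 (0.091), Itgb1 (-0.26), Ilk (-0.066) and Actn4 (-0.54).

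With all probe sets of a gene averaged, the sign turned for Lama4 (-0.0071), Col4a5 (-0.39), Itga3 (0.25), Itga5 (-0.66), Itgb1 (-0.35) and Tln1 (0.26). A floor of 16 turned Itga2 (-0.43) and moved Itgb4 to -1.0049, with its sign kept. Among genes brighter than the median gene, which left 9097 genes, 157 were higher and 205 lower. With array weights, 902 were higher and 551 lower, and the sign turned for Nid1 (0.15), Hspg2 (0.16), Parva (0.058), Vcl (0.015) and Actn4 (-0.16). Without the arrays of Nas497 and Nas484, 829 were higher and 506 lower, the median of the adhesion genes was 0.18, 6 of 37 had Rac1-/- glands wholly above WT glands (2 against 2 mice), against 21.8% of all genes, and the sign turned for Lama5 (-0.077), Nid1 (0.19), Nid2 (0.19), Hspg2 (0.23), Parva (0.18), Src (0.082), Vcl (0.23), Tln1 (0.12), Zyx (0.067), Fermt2 (0.12) and Actn4 (-0.25).

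When each mouse was left out in turn, between 208 and 1166 genes were higher and between 185 and 536 lower at an unadjusted p under 0.05, with 0 to 1 adhesion genes in each direction. The highest count, 1166, was without Nas484. Without Nas496, Col4a3 was higher and Itgb4 lower at this level, and without Nas484, Col4a3 was higher. The median of the adhesion genes lay between -0.13 (without Nas478) and 0.16 (without Nas484), and that of collagens, nidogens and proteoglycans between -0.071 and 0.62, with the higher value without Nas484. The log2 fold change spanned 0 for Nid1 (-0.49 to 0.62), Hspg2 (-0.92 to 0.95), Actn4 (-0.35 to 0.27), Lamb1 (-0.81 to 0.092), Nid2 (-0.68 to 0.15), Itga2 (-1.20 to 1.04), Itga5 (-0.16 to 1.34), Ilk (-0.33 to 0.73), Lims1 (-0.98 to 0.64), Pxn (-1.21 to 0.35), Vcl (-0.54 to 0.49) and Fermt2 (-0.47 to 0.16). It also did so for Actn1 (-0.11 to 0.84), Lama3 (-0.10 to 0.45), Col4a1 (-0.37 to 0.41), Zyx (-0.54 to 0.33), Lamb2 (-0.089 to 0.44), Col4a2 (-0.018 to 0.67), Col4a5 (-0.22 to 0.31), Lama1 (-0.31 to 0.14), Src (-0.51 to 0.085), Parva (-0.21 to 0.16) and Tln1 (-0.47 to 0.063).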
